A study of Saccharomyces cerevisiae with 6 samples.

Results

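The yeast strain lacking the corepressor gene CYC8 was compared between mannose and glucose. The comparison uses 3 of the 6 libraries of the series: the cyc8 deletion (BY4741 cyc8[delta]::kanMX4, in which a kanMX4 cassette replaces the gene) in mannose medium, 1 library, and the same deletion strain in glucose medium, 2 libraries. The other libraries are of the parent BY4741, a haploid laboratory strain of mating type a, in mannose (1) and in glucose (2). Both media were rich, with 1% yeast extract and 2% peptone, and held 2% mannose or 2% glucose as the sugar. The sample labels give 3 h of growth for each library, while the protocol text gives this time for mannose alone, the medium in which the study had cells make free O-glycans. Total RNA was depleted of ribosomal RNA and sequenced as stranded libraries. The labels do not say whether the glucose replicates were separate cultures or how many clones of the deletion were used, so p-values here measure the spread between these libraries, which may be technical. Since the mannose sample has no replicate, the spread in its tests comes from the glucose libraries of both strains.

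CYC8 encodes the partner of Tup1 in a general corepressor that DNA-binding repressors bring to promoters. Through Mig1, Nrg1 and Rgt1 it takes part in glucose repression, which keeps genes for other carbon sources silent while glucose is plentiful. Mannose enters yeast cells through the hexose transporters, is phosphorylated by hexokinases and joins glycolysis after phosphomannose isomerase turns it into a fructose phosphate, or is turned into GDP-mannose for the glycans of secreted and wall proteins. Gluconeogenesis and the glyoxylate cycle, by contrast, serve growth on ethanol, acetate or fatty acids.

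All 6696 open reading frames of the files were considered, and 6146 passed a filter on low counts and were tested with edgeR's quasi-likelihood test in a fit of all 6 libraries. The deletion libraries held 26195734 counts in mannose, against 30702206 and 39266407 counts in glucose, so that a count of 0 allows 0.115 CPM in mannose and 0.0977 and 0.0764 CPM in glucose by counting error alone. Levels are given in CPM, the unit of counts over the library total after scaling by TMM factors, per reading frame and not per length, so they compare libraries and not genes. Changes are log2 fold changes of mannose over glucose ± standard error, and a gene is said to have risen or fallen where the adjusted p (Benjamini-Hochberg, over all reading frames tested) was under 0.05. CYC8 (YBR112C, chrII:462870-465770, 1 coding exon) still held 180 counts in mannose, against 71 and 124 in glucose, which makes 7.92 CPM in mannose, against 2.17 and 2.92 CPM in glucose, and 197 CPM in mannose, against 199.7 and 207 CPM in glucose in wild type. Its change within the deletion was 1.61 ± 0.17, and 0.78 once the trends with GC content and length described below were taken out. TUP1 had 183 CPM in mannose, against 241 and 216 CPM in glucose, a fall of small size (−0.32 ± 0.10, and −1.17 without the trends). The a-specific genes summed to 101 CPM in mannose, against 179 and 174 CPM in glucose. The alpha-specific genes summed to 20.8 CPM in mannose, against 13.6 and 12.3 CPM in glucose, nearly all of it from SAG1. Of the 3 alpha-specific genes tested 1 rose and 0 fell, where 37.6% of all reading frames rose and 39.7% fell. MF(ALPHA)1 had 8 counts in mannose, against 2 and 7 in glucose, and STE3 had 6 counts in mannose, against 18 and 17 in glucose. Of 19 meiosis and sporulation genes tested 9 rose and 2 fell, and the part of other cell types in the results was not tested.

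Most reading frames differed between the mannose library and the glucose pair. Of 6146 reading frames 4746 were called (77.2%), with 2308 rises (37.6%) and 2438 falls (39.7%). Rises of 2-fold or more numbered 1148 (18.7%) and falls of that size 914 (14.9%). The counts of each gene list below are to be read against these shares. The share of calls that were higher was 48.6% here and 37.4% with upper-quartile scaling, which shifts the median of all changes from −0.04 to −0.30, so the balance of rises and falls depends on the scaling. The median absolute log2 change was 0.72, against 0.11 between the glucose replicates, where 80 reading frames differed at least 2-fold. In 5545 reading frames (90.2%) the change in mannose was larger than the difference of the pair. In bulk RNA a smaller share of a kind of cell and less RNA per cell cannot be told apart. The mannose library lay above both glucose libraries in 2849 reading frames (46.4%) and below both in 2978 (48.5%). The Pearson correlation of log2(CPM + 1) across reading frames, which are not independent replicates, was 0.905 and 0.910 between mannose and each glucose library, against 0.998 within the pair.

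**Figure D1:**
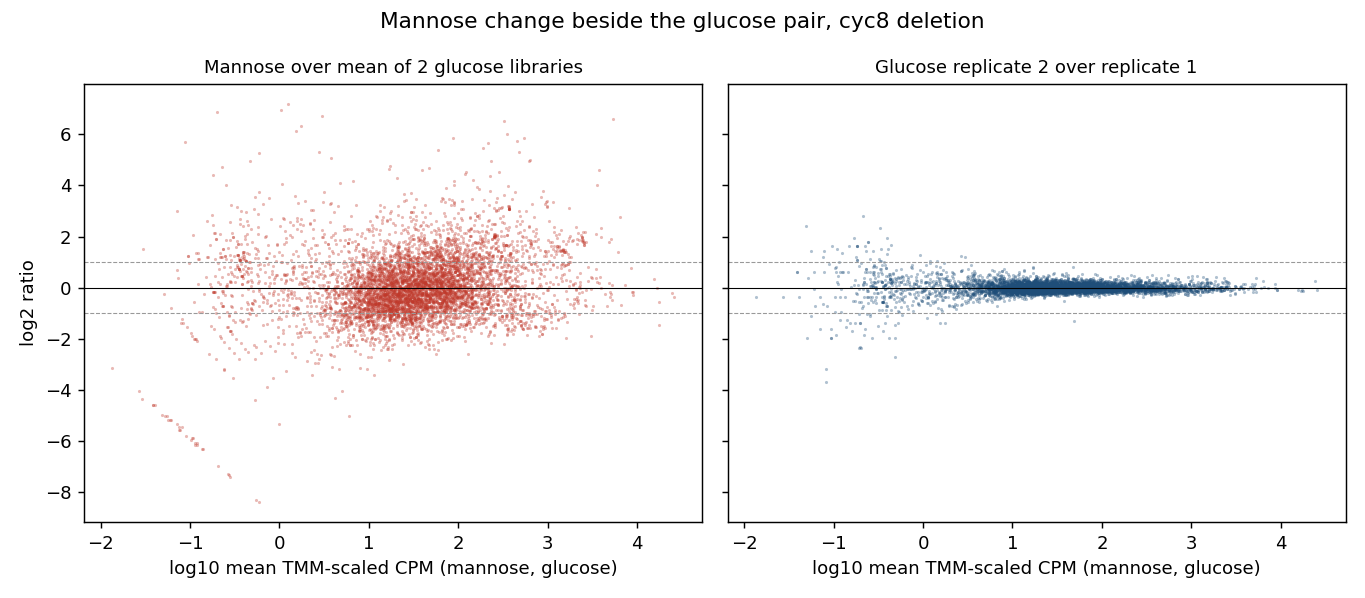
Log2 ratio of each tested reading frame against its level (log10 of the mean TMM-scaled CPM of mannose and glucose) in the cyc8 deletion. The left panel has mannose over the mean of the 2 glucose libraries and the right panel glucose replicate 2 over replicate 1, with dashed lines at a 2-fold ratio; the cloud on the left is wide at every level and that on the right is narrow above 10 CPM, and the diagonal streak at the lower left holds reading frames with 0 counts in mannose (34 in all), whose fitted ratio is no bound.

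The changes also followed base composition and length. Nuclear reading frames with a GC content of 36% or less (490) had a median change of −0.79, and the 835 with more than 44% had 0.45, where the glucose pair (replicate 2 over 1) had medians of 0.01 and −0.05. It was −0.42 over 1096 reading frames of up to 600 bases and 0.01 over the 4732 longer ones. Of the at least 2-fold rises 1042 of the 1065 that could be fitted were also called higher once both trends were taken out, and of the falls 836 of 878 were called lower. Whether the trends arose in the cells or in the making of the libraries was not tested, and values without them stand beside the named genes whose fold they moved by over 1.5 times and beside many of the lists.

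**Figure D2:**
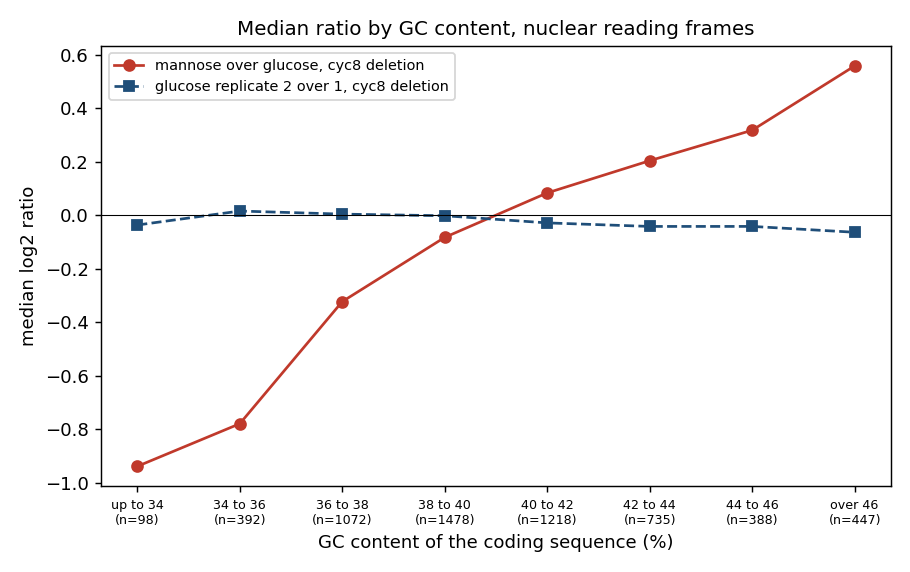
Median log2 ratio of nuclear reading frames (y axis) in bins of GC content of the coding sequence (x axis, with the number in each bin), for mannose over glucose (red circles) and for glucose replicate 2 over 1 (blue squares), both in the cyc8 deletion. The mannose line runs from −0.94 in the lowest bin to 0.56 in the highest, while the replicate line stays between −0.06 and 0.02.

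Many of the largest rises were in enzymes and carriers that turn small carbon units into sugar. PCK1 (YKR097W), for phosphoenolpyruvate carboxykinase, which commits oxaloacetate to gluconeogenesis, had 10509 CPM in mannose, against 95.6 and 124 CPM in glucose. The mannose library was far above both glucose libraries, a change of 6.58 ± 0.12, or 95.8-fold (adjusted p = 4.85e-68, edgeR with Benjamini-Hochberg adjustment). Per length its rank among all reading frames was 13 in mannose, against 1505 and 1212 in glucose. ADY2, an acetate transporter, had 638 CPM in mannose, against 5.93 and 7.87 CPM in glucose (6.51 ± 0.11). The glyoxylate cycle enzymes malate synthase MLS1 and isocitrate lyase ICL1 had 1077 CPM in mannose, against 15.4 and 21.8 CPM in glucose (5.84 ± 0.11) and 1184 CPM in mannose, against 36.7 and 38.9 CPM in glucose (4.97 ± 0.09, and 4.36 without the trends). In each of these genes the glucose libraries were within 1.5-fold of each other and far below the mannose value. The cytosolic isocitrate dehydrogenase IDP2 rose by 6.02 ± 0.10, the peroxisomal citrate synthase CIT2 by 5.72 ± 0.10, the succinate and fumarate carrier SFC1 by 5.66 ± 0.11 and the acetyl-CoA synthetase ACS1 by 4.97 ± 0.10 (4.13 without the trends). The carnitine acetyltransferases YAT1 and YAT2, which hand acetyl units between compartments, rose by 5.01 ± 0.10 (3.07 without the trends) and 5.31 ± 0.09. In the list of gluconeogenesis, glyoxylate cycle and acetate genes all 19 rose, 16 of them at least 2-fold, with a median of 4.97 (3.07 without the trends), where the median of all reading frames was −0.04. Without the trends 17 rose and 1 fell. FBP1, for fructose bisphosphatase, at 3.01 ± 0.18, PYC1, a pyruvate carboxylase, at 4.00 ± 0.10 (3.11 without the trends), and MDH2, the cytosolic malate dehydrogenase, at 0.64 ± 0.09 are named here after their values were seen.

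The regulator genes CAT8 and SIP4 were higher in mannose too, and a link to the rises above was not tested. Their log2 changes in wild type were 1.05 and −0.13. CAT8 and SIP4 encode zinc cluster activators that bind the carbon source response element, and SIP4 had 54.9 CPM in mannose, against 3.30 and 4.92 CPM in glucose, a rise of 3.71 ± 0.14 (4.70 without the trends), while CAT8 had 383 CPM in mannose, against 57.2 and 65.8 CPM in glucose, a rise of 2.64 ± 0.09. Matches to that element, searched on both strands in the 600 bases before the start codon in the reference genome (R64, the sacCer3 build) and chosen for the search after the data were seen, lay before 9 of the 19 gluconeogenesis genes (47.4%) and 7 of the 15 genes with the largest rises (46.7%), against 32 of 5985 windows of that length (0.535%). Both sets hold PCK1, ADY2 and MLS1, among others, so their shares are not separate. Windows can reach into a neighbouring gene, and a match is a description of the letters, not a site of binding. The sequences around the matches before 7 genes that rose strongly, and before MDH2 for contrast, are given below as the RefSeq genome has them on the strand of the gene, with the match in capitals (for MLS1 the farther and the nearer match).
PCK1: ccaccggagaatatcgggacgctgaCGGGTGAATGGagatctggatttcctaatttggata
ADY2: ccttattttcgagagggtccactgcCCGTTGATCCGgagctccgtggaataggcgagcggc
MLS1 farther: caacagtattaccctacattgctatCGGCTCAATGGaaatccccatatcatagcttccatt
MLS1 nearer: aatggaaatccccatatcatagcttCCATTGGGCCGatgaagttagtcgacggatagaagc
ICL1: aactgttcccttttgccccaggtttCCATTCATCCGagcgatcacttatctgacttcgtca
ACS1: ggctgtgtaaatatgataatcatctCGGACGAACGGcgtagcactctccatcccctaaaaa
YAT2: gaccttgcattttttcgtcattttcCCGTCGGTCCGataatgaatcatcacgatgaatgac
SIP4: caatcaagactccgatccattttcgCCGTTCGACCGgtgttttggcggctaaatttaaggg
MDH2: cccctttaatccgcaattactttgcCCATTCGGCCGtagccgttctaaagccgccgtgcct
These stretches lie at chrXI:630565-630625 (plus strand), chrIII:133600-133660 (minus), chrXIV:405802-405862 and chrXIV:405833-405893 (plus), chrV:287277-287337 (minus), chrI:45412-45472 (minus), chrV:201998-202058 (plus), chrX:265626-265686 (plus) and chrXV:83262-83322 (minus). The element did not go with a rise everywhere: of the 31 tested genes with a match 18 rose, 12 of them at least 2-fold, and 8 fell, with a median change of 0.52. Of all 5827 tested genes with a window 2208 rose, 1065 of them at least 2-fold, and 2388 fell, with a median of −0.05. The 31 include the 9 gluconeogenesis genes with a match, all of which rose, so that list makes up 9 of the 18 rises. These counts and the median are therefore not separate from those of that list. Whether the element goes with rises outside it was not tested. The core letters that Mig1 binds (CCCCGC or CCCCAC, both strands) were in 47.4% of the gluconeogenesis windows and 16.6% of all. Some lists with smaller median changes had larger shares: hexose transporters (76.5%), polyol genes (72.7%) and maltose, isomaltose, sucrose and galactose genes (85%).

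**Figure D3:**
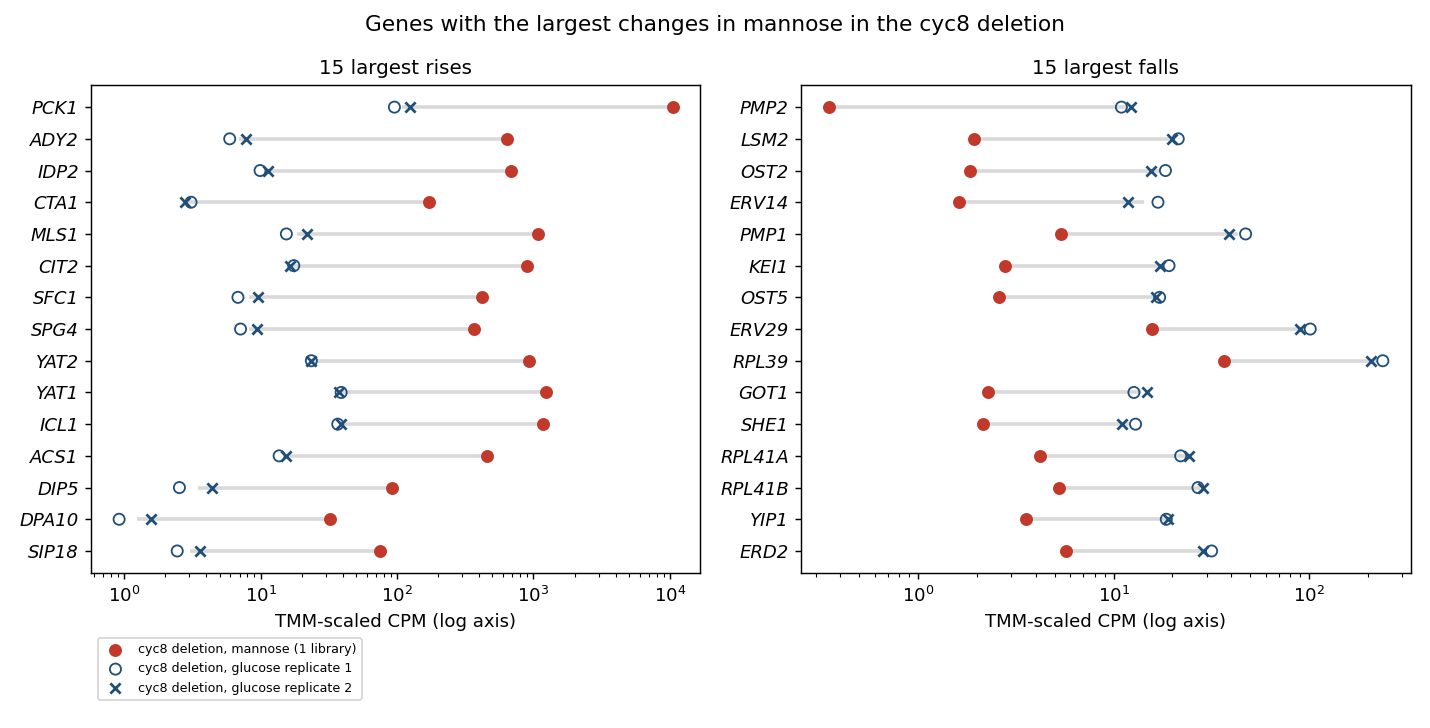
Level of the 15 genes with the largest rises (left) and the 15 with the largest falls (right) in TMM-scaled CPM on a log axis, in the cyc8 deletion. Red points are the mannose library, open circles glucose replicate 1 and crosses glucose replicate 2, and grey lines run from the mannose value to the glucose mean; in each gene shown both glucose libraries lie on the same side of the mannose library and apart from it.

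Other regulators of glucose repression changed in both directions. The repressor RGT1, which holds down hexose transporter genes, rose by 2.50 ± 0.09 (1.76 without the trends), with 405 CPM in mannose, against 70.4 and 73.0 CPM in glucose, and HAP4, the activating subunit of the respiratory CCAAT-binding complex, rose by 2.41 ± 0.09. SNF4, the gamma subunit of the Snf1 kinase, had 16.6 CPM in mannose, against 38.8 and 40.02 CPM in glucose, a fall (−1.25 ± 0.12). The repressors NRG1 (−0.84 ± 0.09) and NRG2 (−0.60 ± 0.10) and the Snf1 beta subunit GAL83 (−0.45 ± 0.10) fell by less than 2-fold. Of 20 regulators 11 rose and 5 fell (median 0.53), and without the trends 11 rose and 9 fell.

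Fatty acid breakdown rose as a group. All 12 genes of peroxisomal beta-oxidation were higher in mannose, 10 at least 2-fold (median 2.43, and 2.26 without the trends), though most were at low levels. FOX2, the multifunctional enzyme, had 432 CPM in mannose, against 19.9 and 21.5 CPM in glucose (4.38 ± 0.09), and CTA1, the peroxisomal catalase, had 170.1 CPM in mannose, against 3.09 and 2.80 CPM in glucose (5.86 ± 0.12). The acyl-CoA oxidase POX1 rose by 2.54 ± 0.15, the thiolase POT1 by 2.59 ± 0.11 (1.99 without the trends), the acyl-CoA synthetase FAA2 by 2.29 ± 0.10, and IDP3 and SPS19, which serve unsaturated fatty acids, by 3.14 ± 0.16 and 2.76 ± 0.17. PXA1 and PXA2, which together bring fatty acids into the peroxisome, rose by 1.58 ± 0.16 and 2.31 ± 0.13.

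The TCA cycle and the respiratory chain were higher as well. All 16 TCA cycle genes rose, 13 at least 2-fold (median 1.99), led by the ketoglutarate dehydrogenase subunit KGD1 with 3134 CPM in mannose, against 357 and 359 CPM in glucose (3.13 ± 0.10). The succinate dehydrogenase flavoprotein SDH1 rose by 3.01 ± 0.09 (2.19 without the trends) and the mitochondrial citrate synthase CIT1 by 2.77 ± 0.09. Of 33 nuclear genes of the respiratory chain and ATP synthase 28 rose and 3 fell (median 1.32). Cytochrome oxidase subunit COX13 rose by 2.81 ± 0.09, cytochrome c1 CYT1 by 2.63 ± 0.09, and the ATP synthase beta subunit ATP2, with 6491 CPM in mannose, against 1315 and 1289 CPM in glucose, by 2.32 ± 0.10. Those that fell were ATP20 (−1.42 ± 0.15, and −0.44 without the trends), ATP15 (−0.64 ± 0.13, and 0.08 without the trends) and COX5B, the hypoxic isoform of cytochrome oxidase subunit V (−0.29 ± 0.11). COX5B was not called by DESeq2 or without the trends (−0.033), where 30 rose and 1 fell.

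Transcripts of the mitochondrial genome rose too. COX1 had 4097 CPM in mannose, against 1119 and 1262 CPM in glucose, and COX2 had 1948 CPM in mannose, against 321 and 435 CPM in glucose, both subunits of cytochrome oxidase. COX1 rose by 1.78 ± 0.10, COX2 by 2.37 ± 0.11, COX3 by 1.62 ± 0.09 and cytochrome b, COB, by 0.86 ± 0.09. VAR1, of the mitochondrial ribosome, rose by 4.19 ± 0.25 with 289 counts in mannose, against 29 and 23 in glucose. ATP6 had 69.9 CPM in mannose, against 40.1 and 16.4 CPM in glucose, so the pair itself differed more than 2-fold. It rose by 1.33 ± 0.15, by 2.03 without glucose replicate 1 and by 0.75 without glucose replicate 2, and DESeq2 did not call it. The proteolipid OLI1 fell slightly (−0.22 ± 0.10, adjusted p = 0.0405, edgeR). Mitochondrial reading frames took 2.65% of the counts in mannose, against 0.744% and 0.857% in glucose. Of 18 mitochondrial reading frames tested, introns included, 16 rose and 1 fell. No fit without the trends covers these genes, which are poor in GC, so the part of the GC trend in their values was not tested. The GC trend was present in wild type as well, where the median change was −0.78 in the bin of lowest GC content. Reading frames within COX1 and COB introns overlap their host genes.

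Hexose transporters moved in both directions. HXT4 had 645 CPM in mannose, against 2514 and 2537 CPM in glucose, a fall (−1.97 ± 0.11), and HXT3 had 1452 CPM in mannose, against 3057 and 2909 CPM in glucose (−1.04 ± 0.11). HXT2 fell by less (−0.70 ± 0.11), with 2422 CPM in mannose, against 3930.4 and 3966 CPM in glucose. HXT5, a transporter of slow growth, rose by 3.43 ± 0.09, with 358 CPM in mannose, against 31.9 and 34.7 CPM in glucose, and HXT13 rose by 2.16 ± 0.09. HXT7 and HXT6, high-affinity carriers with near-identical sequences, stood at 2271 CPM in mannose, against 2526 and 2535 CPM in glucose and 2043 CPM in mannose, against 2356 and 2375 CPM in glucose and were not called (−0.16 ± 0.10 and −0.21 ± 0.10). The whole family summed to 11594 CPM in mannose, against 15299 and 15269 CPM in glucose. Of 17 members 8 rose and 5 fell, with a median of 0.23 that turns to −0.38 without the trends and −0.03 with upper-quartile scaling. Members of this family, as of the MAL, IMA, TDH, PAU, FLO, COS and ribosomal protein families, share long stretches of sequence, and their single values are uncertain because reads may have been shared between copies. FAA2, GLK1 and COX2 overlap another annotated reading frame and are uncertain for the same reason.

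Polyol transport genes rose together. All 11 genes of the group rose, 10 at least 2-fold (median 1.83, and 1.36 without the trends). The mannitol dehydrogenases DSF1 and MAN2, a near-identical pair, had 2313 CPM in mannose, against 479 and 478 CPM in glucose (2.27 ± 0.09, and 1.65 without the trends) and 1933 CPM in mannose, against 391.6 and 457 CPM in glucose (2.19 ± 0.09, and 1.58 without the trends). The sorbitol dehydrogenases SOR1 and SOR2, another such pair, each rose by 1.83. Of 20 genes for maltose, isomaltose, sucrose and galactose 17 rose and 2 fell. The maltose permeases MAL11 and MAL31 rose by 2.48 ± 0.10 and 2.12 ± 0.09 and the isomaltases IMA2 and IMA3 by 1.801 ± 0.10 and 1.66 ± 0.10. Invertase, SUC2, which was already high, had 1873 CPM in mannose, against 2476 and 2353 CPM in glucose and fell by a small amount (−0.37 ± 0.10).

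Of 8 genes of hexose phosphorylation and GDP-mannose supply 4 rose and 4 fell, and without the trends 1 rose and 6 fell. HXK1, the hexokinase of glucose-poor growth, had 4292 CPM in mannose, against 2646 and 2554 CPM in glucose and rose by 0.72 ± 0.10, and the glucokinase GLK1 rose by 0.81 ± 0.10 (−0.21 without the trends), while HXK2, the hexokinase of glucose growth, fell (−0.68 ± 0.11). Phosphomannose isomerase PMI40 had 132 CPM in mannose, against 259.9 and 251 CPM in glucose (−0.96 ± 0.10). The next steps towards GDP-mannose were lower too: phosphomannomutase SEC53 had 138 CPM in mannose, against 385 and 369 CPM in glucose (−1.45 ± 0.10), and GDP-mannose pyrophosphorylase PSA1 had 522 CPM in mannose, against 1317 and 1219.8 CPM in glucose (−1.28 ± 0.11). DPM1, dolichol phosphate mannose synthase, rose by 0.41 ± 0.09, but was not called with upper-quartile scaling (0.15) and stood at −0.39 without the trends.

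In glycolysis and fermentation some isozymes of the same step moved in opposite directions. The main pyruvate decarboxylase PDC1 had 9388 CPM in mannose, against 26986 and 24604 CPM in glucose and fell (−1.46 ± 0.13, and −2.18 without the trends), and its isozyme PDC6 had 162 CPM in mannose, against 17.5 and 17.3 CPM in glucose and rose (3.22 ± 0.10, and 2.56 without the trends). Glyceraldehyde phosphate dehydrogenase TDH1, the isozyme of slow growth, rose by 1.41 ± 0.10, with 8790.1 CPM in mannose, against 3304 and 3298 CPM in glucose, and TDH3, the main isozyme, fell (−0.57 ± 0.12, and −1.19 without the trends). Of 22 glycolysis and fermentation genes 9 rose and 5 fell, where 37.6% of all reading frames rose and 39.7% fell, with a median of 0.11. However, without the trends 5 rose and 14 fell (median −0.34), and the median with upper-quartile scaling was −0.15.

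The genes that start protein O-mannosylation were lower. All 7 protein O-mannosyltransferase genes, which start O-glycans in the endoplasmic reticulum, fell, 3 at least 2-fold (median −0.75, and −1.51 without the trends). PMT1 had 295 CPM in mannose, against 481 and 451 CPM in glucose (−0.66 ± 0.10, and −1.31 without the trends), PMT2 had 306 CPM in mannose, against 536 and 485 CPM in glucose (−0.74 ± 0.10, and −1.54 without the trends), and PMT4 had 94.1 CPM in mannose, against 259 and 241 CPM in glucose (−1.41 ± 0.10). The log2 changes of PMT5 and PMT7 were −1.41 and −2.03, and those of PMT3 and PMT6 were −0.75 and −0.57. In every member the mannose library lay below both glucose libraries, which is true of 48.5% of all reading frames. Chain elongation in the Golgi moved little as a group (median −0.07), with 3 of 13 genes higher and 6 lower: KRE2, which adds the third mannose, rose by 0.68 ± 0.09, while KTR1 fell (−0.86 ± 0.09), as did MNN1, which adds terminal mannoses (−0.86 ± 0.10). In the N-glycan outer chain 3 of 13 rose and 6 fell (median −0.14), and in both lists the falls are near the 39.7% of all reading frames that fell. There MNN4, a positive regulator of mannosylphosphate addition, rose by 0.60 ± 0.09, and the Golgi GDP-mannose transporter VRG4 fell (−1.30 ± 0.10), as did the mannan polymerase subunits MNN9 (−1.03 ± 0.10), MNN10 (−0.70 ± 0.10) and MNN11 (−1.06 ± 0.11).

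The oligosaccharyltransferase, which transfers N-glycans to nascent proteins, fell in all 9 subunits, 6 of them at least 2-fold (median −1.17). The small subunits OST2 and OST5 fell the most, to 1.85 CPM in mannose, against 18.4 and 15.6 CPM in glucose (−3.20 ± 0.21) and 2.60 CPM in mannose, against 17.2 and 16.4 CPM in glucose (−2.69 ± 0.19). Without the trends these stood at −2.21 and −1.88. The catalytic subunit STT3 had 291 CPM in mannose, against 437 and 396 CPM in glucose (−0.52 ± 0.10, and −1.34 without the trends). Of 15 genes of folding and stress in the endoplasmic reticulum 12 fell, 9 at least 2-fold, and 1 rose. Those with the largest falls were the chaperone LHS1 (−1.88 ± 0.10), the oxidase ERO1 (−1.79 ± 0.11) and the disulfide isomerase EUG1 (−1.71 ± 0.11). The gene that rose was HAC1, whose product activates the unfolded protein response after its RNA is spliced, with 2428 CPM in mannose, against 985 and 969 CPM in glucose (1.31 ± 0.10); spliced and unspliced forms are not told apart in these counts. Of 14 genes of degradation from the endoplasmic reticulum 7 rose, CDC48 by 1.01 ± 0.10, and 3 fell, among them the ligase SSM4 (−1.14 ± 0.10), with a median of 0.19 that is −0.07 with upper-quartile scaling.

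Of the genes that break down mannosides AMS1 moved the most. AMS1, the vacuolar alpha-mannosidase, had 1025 CPM in mannose, against 119.9 and 136 CPM in glucose (3.00 ± 0.09), 8.002-fold higher. Its delivery receptors ATG34 and ATG19 rose by 1.19 ± 0.12 and 0.51 ± 0.10. The mannosidases of the secretory pathway MNS1 (−0.55 ± 0.11), MNL1 (−0.70 ± 0.12) and MNL2 (−0.45 ± 0.11) fell, as did the glucosidases CWH41 (−0.64 ± 0.09) and ROT2 (−0.88 ± 0.10). Of these, MNS1, MNL1, MNL2 and CWH41 were not called with a fixed coefficient of variation of 0.2. PNG1, the cytosolic peptide N-glycanase, had 9.59 CPM in mannose, against 7.70 and 7.14 CPM in glucose and rose by 0.37 ± 0.17 (adjusted p = 0.0379, edgeR), a call that DESeq2 did not make.

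Genes of lipid synthesis moved in opposite directions. OLE1, the fatty acid desaturase, had 7157 CPM in mannose, against 298 and 297 CPM in glucose (4.59 ± 0.10), and its rank per length was 18 in mannose, against 547 in each glucose library. INO1, which makes inositol phosphate, had 236 CPM in mannose, against 10.7 and 9.77 CPM in glucose (4.53 ± 0.10), the fatty acid synthase FAS2 rose by 1.88 ± 0.10 (0.97 without the trends), and the regulator INO4 rose by 2.298 ± 0.18. Of 17 genes of inositol and phospholipid synthesis 12 rose and 1 fell, CPT1 (−1.19 ± 0.11). The core letters of the inositol element, CATGTG, chosen after the data were seen, were in 70.6% of the windows of this list and 16.4% of all. Sterol synthesis went the other way: of 23 genes 18 fell, 8 at least 2-fold, and 1 rose (median −0.67), and without the trends 22 fell. The sterol demethylase ERG11 had 456 CPM in mannose, against 1313 and 1321 CPM in glucose (−1.53 ± 0.11) and the desaturase ERG3 fell (−1.30 ± 0.10). The gene that rose, ERG7 (0.20 ± 0.10, adjusted p = 0.0479, edgeR), stood at −0.31 without the trends and −0.06 with upper-quartile scaling.

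Reserve carbohydrate and stress genes rose. Of 12 glycogen genes 11 rose, 9 at least 2-fold, and 1 fell. Glycogen synthase GSY2 had 978 CPM in mannose, against 301 and 309.8 CPM in glucose (1.68 ± 0.09) and the branching enzyme GLC3 rose by 2.03 ± 0.09. The minor phosphoglucomutase PGM1 fell to 12.1 CPM in mannose, against 49.3 and 42.5 CPM in glucose (−1.92 ± 0.12), while the major one, PGM2, rose by 1.86 ± 0.09. In trehalose metabolism 6 of 7 rose, the synthase TPS1 by 1.71 ± 0.09 (1.06 without the trends) and the acid trehalase ATH1 by 2.02 ± 0.09, and TPS3 was not called (−0.03 ± 0.09). Of 20 general stress genes 18 rose, 14 at least 2-fold, and the others were not called (median 1.74). SIP18 had 75.4 CPM in mannose, against 2.44 and 3.60 CPM in glucose (4.61 ± 0.14), HSP42, a small heat shock protein, 1809 CPM in mannose, against 182 and 166 CPM in glucose (3.38 ± 0.09), and SPI1, a wall protein of weak acid stress, 536 CPM in mannose, against 64.0 and 58.0 CPM in glucose (3.14 ± 0.09). Per length HSP12, for a membrane-stabilising protein and named after its values were seen, had rank 1 in mannose, against 31 and 22 in glucose. The stress response element AGGGG, searched on both strands as were all motifs here, was in 90% of the windows of these stress genes, 53.2% of those of the genes at least 2-fold higher, 32% of those at least 2-fold lower and 39.7% of all. Its share varied among lists in which most genes fell. It was 72.7% for histones and 70.8% for seripauperins, but 37% for cytosolic ribosomal proteins and 22.7% for cell cycle regulators.

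Heat shock and oxidative stress genes varied more. Of 21 chaperone genes 12 rose and 4 fell (median 0.53), and without the trends 10 rose and 7 fell. The disaggregase HSP104 had 3499.6 CPM in mannose, against 663 and 677 CPM in glucose (2.38 ± 0.10) and SSA4 rose by 2.47 ± 0.10, while the constitutive HSC82 had 2188 CPM in mannose, against 3895 and 4075 CPM in glucose and fell (−0.86 ± 0.11). The heat shock element GAANNTTC was in 66.7% of the windows of these genes and 22.8% of all. Of 19 oxidative stress genes 16 rose, the sulfiredoxin SRX1 by 3.49 ± 0.13 (1.98 without the trends), and 1 fell, the peroxiredoxin AHP1 (−0.73 ± 0.11). In the osmotic list of 12 genes 8 rose, 1 fell (SKO1, for a transcription factor of that response, −0.29) and the median was 0.42, but without the trends 4 rose and 4 fell (median −0.15). The glycerol symporter STL1 rose the most there (2.10 ± 0.11).

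**Figure D4:**
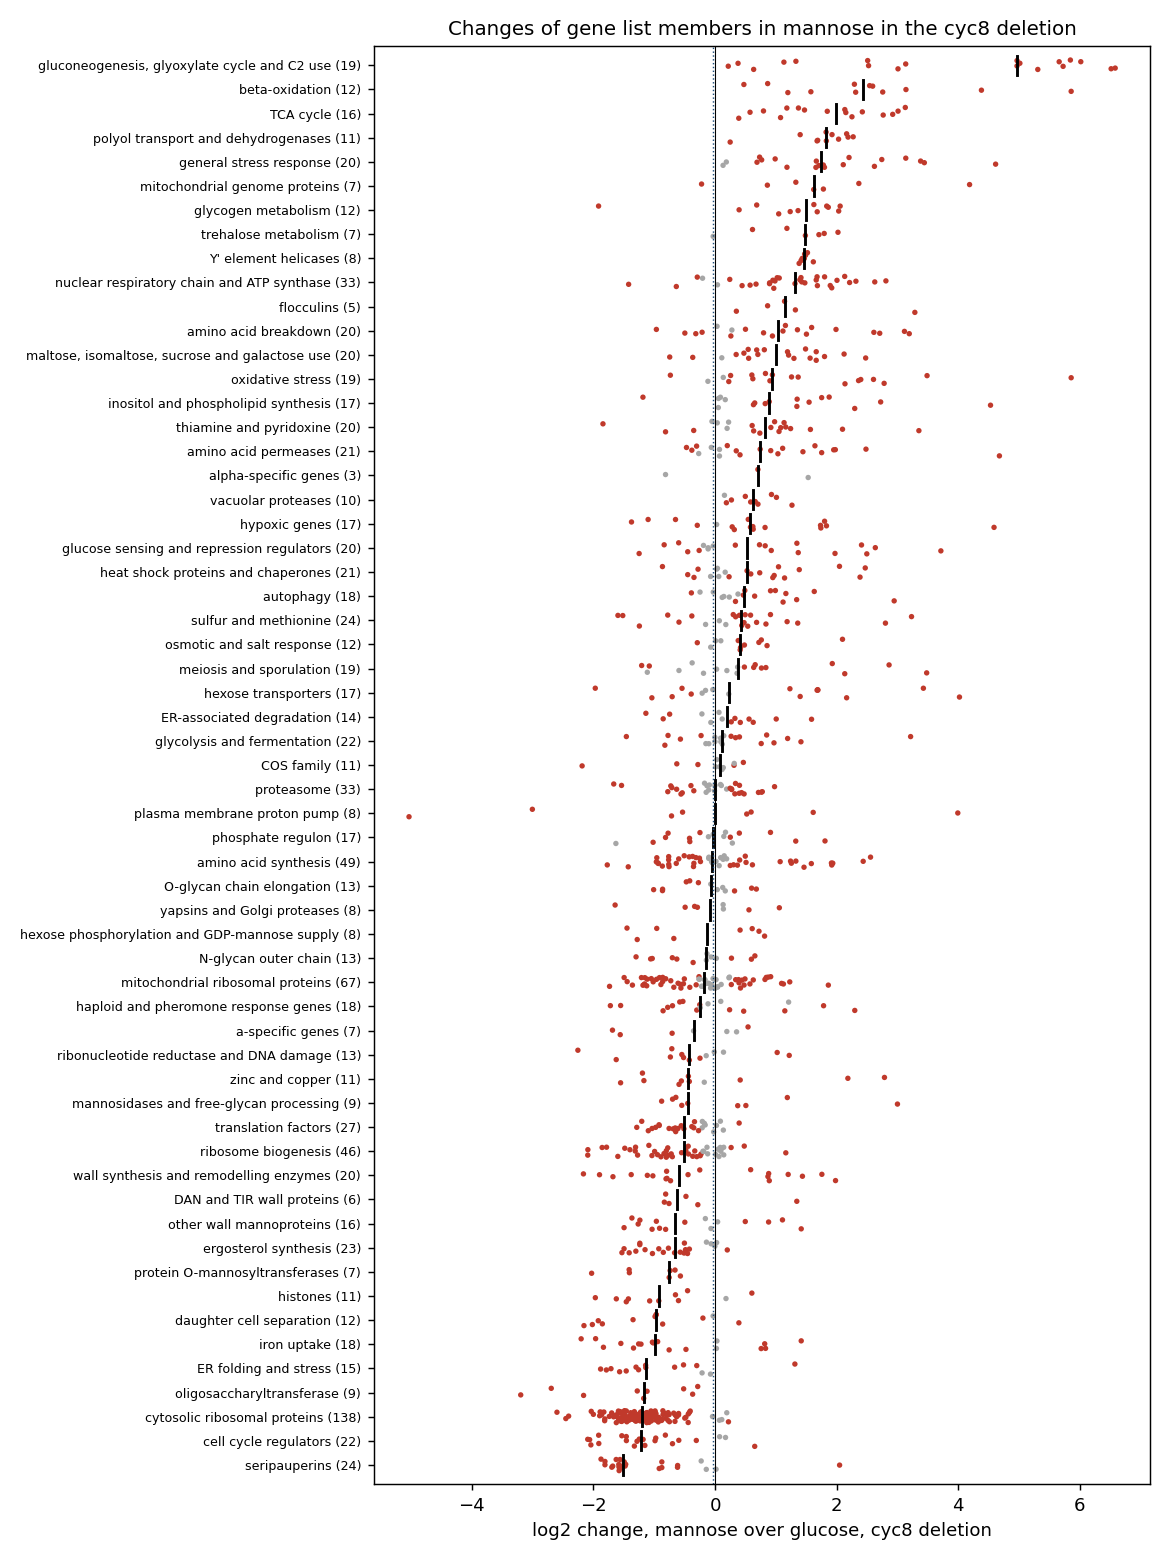
Log2 change of each tested member (points) in mannose over glucose in the cyc8 deletion (x axis), by gene list with the number of members tested (y axis, ordered by median). Red points were called and grey ones were not, black bars are list medians, and the dotted line is the median of all reading frames; medians run from 4.97 for gluconeogenesis at the top to −1.51 for seripauperins at the bottom.

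The cell surface changed in both directions. Of 24 seripauperin genes, for small wall glycoproteins of anaerobic growth, 20 fell, 15 at least 2-fold, and 1 rose (median −1.51). PAU24 had 1312 CPM in mannose, against 5231 and 4397 CPM in glucose (−1.88 ± 0.12), and PAU1 and PAU14, which had equal counts, changed by −1.81 each. The gene that rose, PAU23, was low throughout, with 6.47 CPM in mannose, against 1.68 and 1.46 CPM in glucose. Of the DAN and TIR genes DAN4 rose by 1.34 ± 0.09 (0.44 without the trends) and the other 5 fell by less than 2-fold, among them TIR1 with 4418 CPM in mannose, against 6530.1 and 5777 CPM in glucose (−0.48 ± 0.11). The flocculin FLO11, an adhesin of filamentous growth, had 1707 CPM in mannose, against 165 and 184 CPM in glucose (3.29 ± 0.09, and 1.99 without the trends). All 5 flocculin genes rose, but without the trends 2 rose and 2 fell (median 1.14, and 0.09 without them). Of 16 other mannoproteins of the wall 4 rose and 9 fell, among them ECM33 (−1.50 ± 0.11) and CWP2 (−1.26 ± 0.11). Among 20 enzymes of wall synthesis and remodelling, 8 rose and 12 fell, where 37.6% of all reading frames rose and 39.7% fell. Chitin synthase CHS1 had 836 CPM in mannose, against 203 and 220.4 CPM in glucose (1.98 ± 0.09). The remodelling enzymes GAS1 and UTR2 had 334 CPM in mannose, against 1229.7 and 1259.8 CPM in glucose (−1.90 ± 0.11) and 84.6 CPM in mannose, against 403 and 356 CPM in glucose (−2.16 ± 0.11).

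Genes that separate daughter from mother cells were lower. Of 12 such genes 10 fell, 5 at least 2-fold, and 1 rose (median −0.98). The daughter-specific genes DSE2 and DSE1 had 13.6 CPM in mannose, against 63.6 and 58.0 CPM in glucose (−2.16 ± 0.12) and 18.6 CPM in mannose, against 75.8 and 74.9 CPM in glucose (−2.02 ± 0.11), EGT2 had 48.6 CPM in mannose, against 189.9 and 178 CPM in glucose (−1.92 ± 0.11), and the glucanases DSE4 (−1.85 ± 0.11) and SCW11 (−1.35 ± 0.11) fell. The chitinase CTS1 had 483 CPM in mannose, against 371 and 364 CPM in glucose and rose by 0.39 ± 0.10, but was not called with upper-quartile scaling (0.13) or without the trends (0.12), where 11 of the list fell.

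Ribosome and division genes were lower in mannose. Of 138 cytosolic ribosomal protein genes 133 fell, 100 at least 2-fold (median −1.19, and −1.17 without the trends). They took 5.09% of the counts in mannose, against 11.9% and 11.5% in glucose. The shortest were among the lowest: RPL39 had 36.6 CPM in mannose, against 238 and 206 CPM in glucose (−2.60 ± 0.12, and −1.75 without the trends), and the pair RPL41A and RPL41B changed by −2.45 and −2.41 (−1.58 and −1.39 without the trends). RPL4A rose (0.22 ± 0.10, adjusted p = 0.0493, edgeR), but stood at −0.53 without the trends and −0.04 with upper-quartile scaling. Of 46 ribosome assembly genes 31 fell, among them UTP22 (−2.09 ± 0.10) and CIC1 (−2.09 ± 0.13, and −1.49 without the trends), and 3 rose, led by the methyltransferase NOP2 (1.16 ± 0.09). The PAC letters GATGAG, chosen after the data were seen, were in 95.7% of the windows of assembly genes and 32.2% of all. Of 27 translation factors 18 fell and 1, TIF34, rose (0.40 ± 0.09). TIF34 was not called with upper-quartile scaling (0.14), where 24 factors fell, or without the trends (0.11), where 25 fell. Also, of 67 mitochondrial ribosomal protein genes 18 rose and 29 fell, where 37.6% of all reading frames rose and 39.7% fell.

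Of 22 cell cycle regulators 19 fell, 13 at least 2-fold (median −1.21). The mitotic cyclin CLB2 had 9.19 CPM in mannose, against 33.95 and 41.6 CPM in glucose (−2.04 ± 0.13) and the G1 cyclin CLN1 14.2 CPM in mannose, against 53.1 and 53.7 CPM in glucose (−1.91 ± 0.12). The regulator that rose was WHI5, which holds back entry into the cycle, at 0.65 ± 0.14, but it stood at −0.58 without the trends. Of 11 histone genes 9 fell, 5 at least 2-fold, with 35.2 CPM in mannose, against 139.9 and 136 CPM in glucose for HTB2 (−1.97 ± 0.11), and the centromeric histone CSE4 rose by 0.61 ± 0.13. The ribonucleotide reductase subunit RNR1 fell (−1.63 ± 0.10), as did HUG1, for an inhibitor of that enzyme (−2.26 ± 0.13), while the recombination gene RAD54 rose by 1.22 ± 0.09.

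Nitrogen and amino acid genes showed large single changes. DIP5, a permease of acidic amino acids, had 91.1 CPM in mannose, against 2.54 and 4.405 CPM in glucose (4.68 ± 0.12). DPA10, also among the 15 largest rises, had 32.3 CPM in mannose, against 0.917 and 1.58 CPM in glucose (4.65 ± 0.20, and 5.50 without the trends). Of 21 amino acid and ammonium permeases 14 rose and 3 fell, and without the trends 11 rose and 6 fell. The activator of amino acid synthesis GCN4 had 2738 CPM in mannose, against 729 and 702 CPM in glucose (1.94 ± 0.10). Among 49 synthesis genes 18 rose and 21 fell, near the 37.6% and 39.7% of all reading frames that did. Without the trends 13 of the synthesis genes rose and 33 fell. Those with the largest rises act in arginine and asparagine synthesis, CPA1 at 2.56 ± 0.09, ARG1 at 2.44 ± 0.12 and ASN1 at 1.92 ± 0.10 (1.31 without the trends), and SER33 of serine synthesis fell the most (−1.77 ± 0.10). The Gcn4 letters TGACTC were in 79.6% of these windows and 15.3% of all. Of 20 breakdown genes 14 rose, the glutamate dehydrogenase GDH2 by 3.12 ± 0.09, with 446 CPM in mannose, against 49.0 and 53.8 CPM in glucose, and the allantoinase gene DAL1 fell (−0.96 ± 0.32, and −1.61 without the trends, though DESeq2 did not call it), as did 4 in all. In sulfur metabolism the sulfate permease SUL1 rose by 3.23 ± 0.12, while the assimilation genes MET16 (−1.60 ± 0.18) and MET14 (−1.52 ± 0.12) fell. The pyridoxine gene SNZ1 had 128 CPM in mannose, against 11.7 and 13.3 CPM in glucose (3.35 ± 0.11).

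Metal and phosphate genes moved in both directions. Of 18 iron uptake genes 12 fell, 9 at least 2-fold, and 4 rose, among them the mannoprotein FIT1 (1.42 ± 0.10, and 0.56 without the trends). The siderophore transporter SIT1 had 115 CPM in mannose, against 549 and 506 CPM in glucose (−2.20 ± 0.10), and the reductase FRE1 fell (−1.96 ± 0.11). The copper transporter CTR1 fell (−1.17 ± 0.10) and the metallothionein CRS5 rose by 2.79 ± 0.17. Of 17 phosphate genes 5 rose and 6 fell (median −0.03), where 37.6% of all reading frames rose and 39.7% fell. Among the phosphate genes called were PHM8 (1.81 ± 0.12) and the polyphosphate synthesis gene VTC1 (−1.02 ± 0.11). The letters CACGTG that Pho4 and Cbf1 bind were in 88.2% of the phosphate windows and 7.23% of all.

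Of 10 vacuolar protease genes 9 rose, carboxypeptidase Y, PRC1, by 1.01 ± 0.09 (0.23 without the trends), and 6 without the trends. In autophagy 11 of 18 rose, ATG8, whose product coats the autophagosome, with 52.0 CPM in mannose, against 6.72 and 6.76 CPM in glucose (2.95 ± 0.13). The 33 proteasome genes had a median near 0, with 13 rises and 10 falls, where 37.6% of all reading frames rose and 39.7% fell. Without the trends 13 proteasome genes rose and 15 fell. The meiotic activator IME1 had 302 CPM in mannose, against 43.9 and 39.2 CPM in glucose (2.86 ± 0.09, and 3.55 without the trends), and the spore wall gene SPS100 rose by 3.48 ± 0.11. The pheromone receptor of a cells, STE2, fell (−1.56 ± 0.11). All 8 helicase genes of the telomeric Y' elements, near-identical copies, rose (median 1.47), but without the trends their median was 0.17 and 3 rose. The 240 nuclear reading frames within 20 kb of the first or last annotated gene of a chromosome had a median change of 0.49, and the other 5588 of −0.07.

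The log2 changes of the 15 largest falls by the naming rule lay between −5.03 (PMP2) and −2.39 (ERD2). PMP2, a small protein that associates with the plasma membrane proton pump, had 8 counts in mannose, against 359 and 519 in glucose, which makes 0.352 CPM in mannose, against 10.97 and 12.2 CPM in glucose (−5.03 ± 0.32, and −3.89 without the trends), and its partner PMP1 had 5.37 CPM in mannose, against 47.3 and 39.0 CPM in glucose (−3.00 ± 0.15, and −1.71). The vesicle cargo receptors ERV14 and ERV29 had 1.63 CPM in mannose, against 16.9 and 11.9 CPM in glucose (−3.13 ± 0.23, and −2.23 without the trends) and 15.7 CPM in mannose, against 101 and 90.1 CPM in glucose (−2.61 ± 0.12). The receptor that returns escaped proteins to the endoplasmic reticulum, ERD2, fell (−2.39 ± 0.15, and −1.79 without the trends), as did YIP1 (−2.40 ± 0.18) and GOT1 (−2.59 ± 0.20, and −1.97 without the trends), of transport to the Golgi, and KEI1, of sphingolipid synthesis (−2.72 ± 0.19, and −2.08 without the trends). LSM2, of RNA decay and splicing, at −3.41 ± 0.20 (−2.33 without the trends), and the spindle protein SHE1, at −2.47 ± 0.22, were also among them. The pump itself, PMA1, had 3442 CPM in mannose, against 5617 and 5689 CPM in glucose (−0.72 ± 0.11, and −1.36 without the trends), and HSP30, which lowers its activity, 676 CPM in mannose, against 35.4 and 49.3 CPM in glucose (3.99 ± 0.10). The mannose library lay below both glucose libraries in each of these falling genes and above them in HSP30.

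The change in the deletion was set beside that in wild type, which shares no library with it. In wild type 2300 reading frames were called (37.4%), 1263 higher (20.5%) and 1037 lower (16.9%). The difference between the changes was called for 3943 (64.2%), 1826 higher (29.7%) and 2117 lower (34.4%) in the deletion than in wild type, and by at least 2-fold for 892 higher (14.5%) and 768 lower (12.5%). Both changes were called in 1933. That is 40.7% of the calls in the deletion, where 37.4% of all reading frames were called in wild type. It is 84.0% of the calls in wild type, where 77.2% of all were called in the deletion. Of the 1933 called in both, 1509 moved the same way, 831 higher and 678 lower, and 424 opposite ways. Spearman's rho of the changes across reading frames was 0.417, a description over points that share libraries.

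Gluconeogenesis genes were among those that differed most. PCK1 had 8.08 CPM in mannose, against 6.78 and 6.36 CPM in glucose in wild type, a change of 0.30 ± 0.15 that was not called, and the change in the deletion exceeded it by 6.28 ± 0.19 (adjusted p = 1.12e-47, edgeR's interaction test). ADY2 differed by 6.30 ± 0.33 and the stationary phase gene SPG4, with 369 CPM in mannose, against 7.12 and 9.37 CPM in glucose in the deletion and 0.388 CPM in mannose, against 0.612 and 0.756 CPM in glucose in wild type, by 6.29 ± 0.40. Of the 19 genes of that list 7 rose in wild type (median 0.26), and the difference was called higher in the deletion for 16. Of the 7 protein genes tested in the mitochondrial genome 6 rose in the deletion, and 6 fell in wild type (medians 1.62 and −1.53). The difference was called higher in the deletion for all 7, VAR1 by 6.65 ± 0.59 and ATP6 by 6.34 ± 0.27. For ATP6 most of the difference was the fall in wild type. High-affinity hexose transporters differed the other way. HXT7 had 1033 CPM in mannose, against 106 and 110.3 CPM in glucose in wild type (3.25 ± 0.10) while in the deletion it was high in both media and not called, a difference of −3.41 ± 0.15; HXT6 differed by −3.27 ± 0.15 and HXT4 by −4.22 ± 0.16. HXK1 rose in both, by 0.72 ± 0.10 in the deletion and 2.84 ± 0.10 in wild type. PMP2 fell in both, and the difference was −2.82 ± 0.45, while SSU72, a phosphatase of RNA polymerase, had 0.792 CPM in mannose, against 7.12 and 6.74 CPM in glucose in the deletion and differed by −2.74 ± 0.34.

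**Figure D5:**
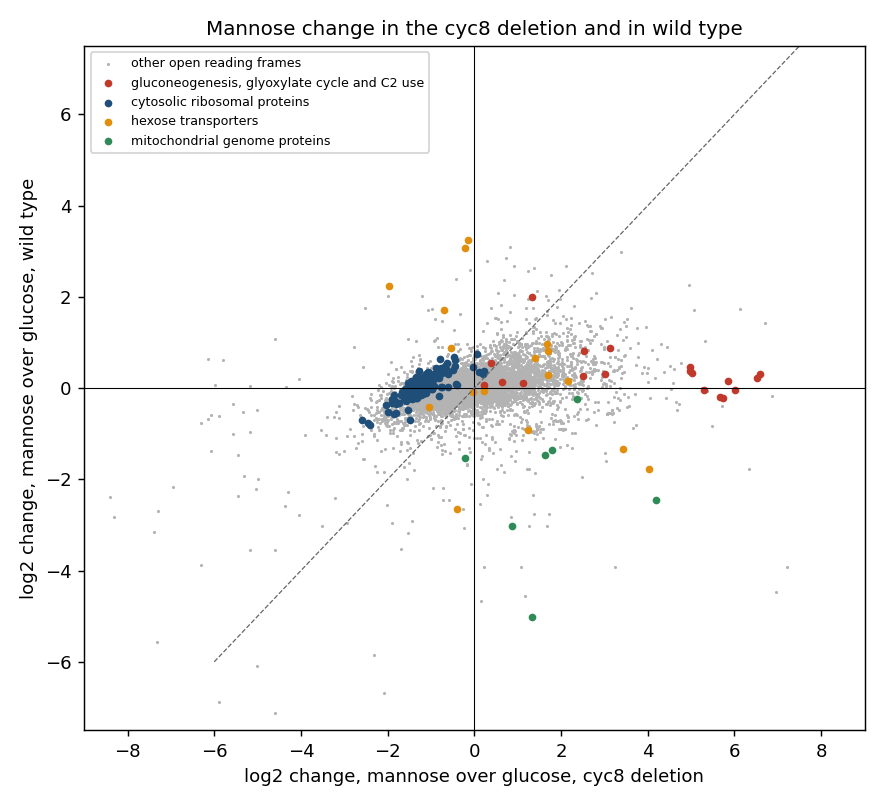
Log2 change of each tested reading frame in mannose over glucose in the cyc8 deletion (x axis) and in wild type (y axis), with the dashed line at equality; 4 gene lists are coloured. Gluconeogenesis genes (red) spread to the right near a wild-type change of 0, ribosomal protein genes (blue) lie to the left, and mitochondrial genome genes (green) lie below 0 on the wild-type axis and mostly to the right.

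Growth genes differed between the strains as well. The 138 ribosomal protein genes had a median of −1.19 in the deletion and 0.05 in wild type, and the difference was called lower in the deletion for 135. For seripauperins the medians were −1.51 and 0.13, with 18 of 24 lower in the deletion. All 7 O-mannosyltransferase genes and all 9 oligosaccharyltransferase genes were lower in the deletion by that test. Reserve genes rose in both strains: of 12 glycogen genes 11 rose in the deletion and 9 in wild type. The phosphate genes had medians of −0.03 in the deletion and −0.91 in wild type, where 13 of 17 fell.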

How the data were processed

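Total RNA of 6 yeast cultures was depleted of ribosomal RNA with Ribo-Zero Gold and made into stranded TruSeq libraries, per the labels' protocols. The build was sacCer3, and the tools named are TopHat2 2.0.9, Bowtie2 2.3.4.2 and CASAVA 1.8, with no role or order, per the submitters' processing notes. Which program counted the reads, with which strand setting and annotation, is not given in the sources used. The deposited values are raw counts per open reading frame, 1 file per library, with a length column that equals the number of codons minus 10 for 5969 of the 6007 reading frames with a coding length in the reference, and no normalization by the authors is seen in the counts, since each library has its own total. Totals ran from 26195734 to 44084216 counts. Of 6696 reading frames 6008 were in the reference annotation, and the other 688 took 0.206 to 0.624% of counts.

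Counts were filtered with filterByExpr (550 left out), scaled by TMM (factors of 0.868 in deletion mannose, 1.07 and 1.08 in deletion glucose, 0.990 in wild-type mannose, and 0.990 and 1.02 in wild-type glucose) and fitted with edgeR 4.0.16 in R 4.3.3 (limma 3.58.1), with 1 mean per group over all 6 libraries. This leaves 2 residual degrees of freedom, from the glucose pairs, and each mannose library is assumed to vary like them; the common biological coefficient of variation was 5.54% and the prior degrees of freedom 86.7. Standard errors are the absolute log2 change over the root of the quasi-likelihood F. Calls have a Benjamini-Hochberg adjusted p under 0.05 over 6146 reading frames. Tested on simulated data for mannose in the deletion, with 50 of 6043 genes changed at each size, the fit recovered 32% at 1.25-fold, 90% at 1.5-fold, 98% at 2-fold and 100% at 4-fold, and 7 of 167 calls were false. Every simulated library varied by the fitted spread, held no trend with GC content or length, and few genes changed. The simulation therefore cannot show how many calls are false for the real mannose library, which has no replicate.

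The gene lists and motifs were chosen with earlier results of these data known. The genes named are CYC8, TUP1, the 15 largest called rises and falls with at least 10 CPM in the higher group and a mannose value outside the glucose pair, up to 4 rises and 4 falls per list, members of lists of 12 or fewer, and the 5 largest differences from wild type in each direction; FBP1, PYC1, MDH2 and HSP12 were added after their values were seen. Of all reading frames 290 had a copy of at least 95% identity over at least 80% of the length. Motifs were searched in the 600 bases before each start codon. As an alternative, offsets took out the trends with GC content and length, from a smooth fit of each library over 5828 nuclear reading frames. Other alternatives were DESeq2 1.42.0 (test and size factors), upper-quartile scaling, no filter, the deletion libraries alone, a fixed coefficient of variation of 0.2 and leaving out each glucose library.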

Additional observations from a re-analysis of the deposited data

Results flagged for a closer look

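The change in mannose differed between the cyc8 deletion and wild type, by edgeR's interaction test, for 3943 reading frames (64.2% of 6146). Among named genes with at least 10 CPM the largest differences in log2 change, deletion minus wild type, were 6.65 for VAR1 and 6.34 for ATP6 in the mitochondrial genome, 6.30 for ADY2, 6.29 for SPG4 and 6.28 for PCK1. In the other direction they were −4.22 for HXT4, −3.41 for HXT7, −3.27 for HXT6, −2.82 for PMP2 and −2.74 for SSU72. HXT6 and HXT7 are near-identical copies, and the reads of either may have been counted for the other. VAR1 rested on 289 counts in mannose, against 29 and 23 in glucose in the deletion. For ATP6 most of the difference was a fall in the wild-type mannose library, and DESeq2 did not call its rise in the deletion. The cause of these differences was not tested.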

How the results depend on the processing

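No paired analysis was possible because each mannose group is 1 library whose label carries no replicate number shared with the glucose pair. With a fixed coefficient of variation of 0.2 in place of the estimated spread, calls of mannose in the deletion numbered 2496 (1380 higher and 1116 lower) in place of 4746, and those of the difference from wild type 818 (554 higher and 264 lower, and the same numbers at least 2-fold, 554 and 264) in place of 3943. Of the 1148 rises and 914 falls of at least 2-fold, 1142 and 906 were called at that spread too. Upper-quartile scaling gave 1413 falls of at least 2-fold in the deletion in place of 914, and 1211 lower differences of at least 2-fold in place of 768. Calls in the deletion ranged from 4608 to 4765 when each glucose library was left out in turn, and those of the difference from 3538 to 4106. DESeq2's test gave 4262 calls in the deletion, the deletion libraries alone 4625 and the removal of trends 4555 of 5828. Of 2247 gene values recomputed for the 205 genes named, 2156 kept their direction and side of the threshold, 72 were no longer called, 11 became called and 8 turned round. Those were, without the trends, RPL4A (−0.53), GLK1 (−0.21), ERG7 (−0.31), WHI5 (−0.58), ATP15 (0.080) and DPM1 (−0.39), and, with upper-quartile scaling, RPL4A (−0.037) and ERG7 (−0.056). Of the calls close to the threshold 4 were lost when a library was left out: without deletion glucose replicates 1 and 2 in turn, ERG7 stood at 0.13 and 0.15, PNG1 at 0.36 and 0.26 and RPL4A at 0.20 and 0.12, and OLI1 was lost without replicate 2 (−0.12). All 4 were also lost without either wild-type glucose library, where their values moved little. HXT6 became called without deletion glucose replicate 1 (−0.28) or 2 (−0.26), and HXT7 without replicate 1 (−0.23). DESeq2 did not call ATP6, COX5B, DAL1, ERG7, OLI1 or PNG1, upper-quartile scaling lost CTS1, DPM1, PNG1 and TIF34, and removal of the trends lost COX5B, CTS1 and TIF34. The fixed coefficient of variation lost 38 named genes. Among them were PMT1, PMT2, PMT3, PMT6, MNS1, MNL1, MNL2, CWH41, HXK1, HXK2, NRG1, NRG2 and TUP1. The cause of these shifts was not tested.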
